A study of Mus musculus with 8 samples.

Results

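Oxidative phosphorylation subunits are the nuclear-encoded proteins of complexes I to V of the inner mitochondrial membrane, together with cytochrome c. The 45 genes described here were chosen by name, although earlier results of these data were known. Every probe whose accession maps to one of these symbols was taken. They comprise 18 genes of complex I, 4 of complex II, 6 of complex III, 1 of cytochrome c, 6 common subunits of complex IV, 3 muscle isoforms of complex IV and 7 of complex V, of 12739 named genes tested on the array. All 45 were well above background on all 8 arrays, and none had a saturated spot.

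Complexes I to IV pass electrons from NADH and succinate to oxygen, complexes I, III and IV pump protons out of the matrix, and complex V uses the returning protons to make ATP. Cytochrome c carries electrons from complex III to complex IV. In skeletal muscle, several complex IV subunits exist as a muscle (heart-type) isoform and a ubiquitous (liver-type) isoform, encoded by separate genes. p300 (Ep300) and CBP (Crebbp) are related histone acetyltransferases and transcriptional coactivators.

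The samples were extensor digitorum longus (EDL) muscles, a fast hindlimb muscle, of male C57BL/6 mice. The 4 PCKO mice carried a skeletal muscle-specific, inducible knockout of both p300 and CBP, although the genotype field names CBP alone. They received tamoxifen by oral gavage on 5 days from 13 to 15 weeks of age and were killed the day after the last dose, after a 4 h fast. The 4 control mice are labelled wildtype (WT), with the same strain, sex and tissue, and the labels give the same protocol text for them. The labels name neither the promoter that drives Cre nor whether WT mice carried Cre or floxed alleles. Total RNA of each mouse was hybridized to 1 Agilent 1-color array of 1 slide, with replicates 1 and 2 of each group in slide row 1 and replicates 3 and 4 in slide row 2.

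On each array 43.5 to 46.1% of the probes were well above background. A level below is log2 processed signal minus the 75th percentile of that array, unless another scaling is named, and a difference is PCKO minus WT. Ep300 was lower in PCKO muscle by this scaling (-1.44 ± 0.11, SE), and so was Crebbp (-0.70 ± 0.11), with no overlap between groups. With spike-in scaling they differed by -0.76 and -0.02, the second not passing (limma, adjusted p = 0.022 and 0.97). The position of both probes in relation to the deletion is unknown, so they are a limited check of the labels. The 6 muscle fiber genes Myh4, Myh1, Acta1, Ckm, Tnnt3 and Pvalb were detected in both groups and all 6 were lower in PCKO muscle. Their mean level spanned 6.62 to 7.11 in PCKO muscles and 9.52 to 9.88 in WT muscles, but the fall was uneven. Myh4 and Tnnt3 differed by -0.66 and -0.76, and the others by -3.01 to -5.40. Slow-fiber markers, 5 in number, fell too (median difference -5.82). By spike-in scaling 4 of the 6 fiber genes and 5 of the 5 slow-fiber markers remained lower. Myh4 and Tnnt3 did not pass by spike-in scaling (0.02 and -0.08) or by quantile scaling (-0.07 and -0.09).

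With 75th percentile scaling, 44 of the 45 subunit genes were lower in PCKO muscle and none was higher, at an adjusted p below 0.05 in limma over all genes. The background was high in both directions, with 32.7% of all genes tested called lower and 38.3% called higher. The median difference of the 45 was -0.66, beside 0.06 over all genes tested. In 43 of the 45, every PCKO value lay below every WT value, which was so for 29.7% of all genes. The exceptions were Sdhd and Cox7b. Differences were mostly moderate, with 3 genes lower by 2-fold or more (Cox6a2, Uqcrc1 and Cox8b), beside 13.9% of all genes.

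**Figure D1:**
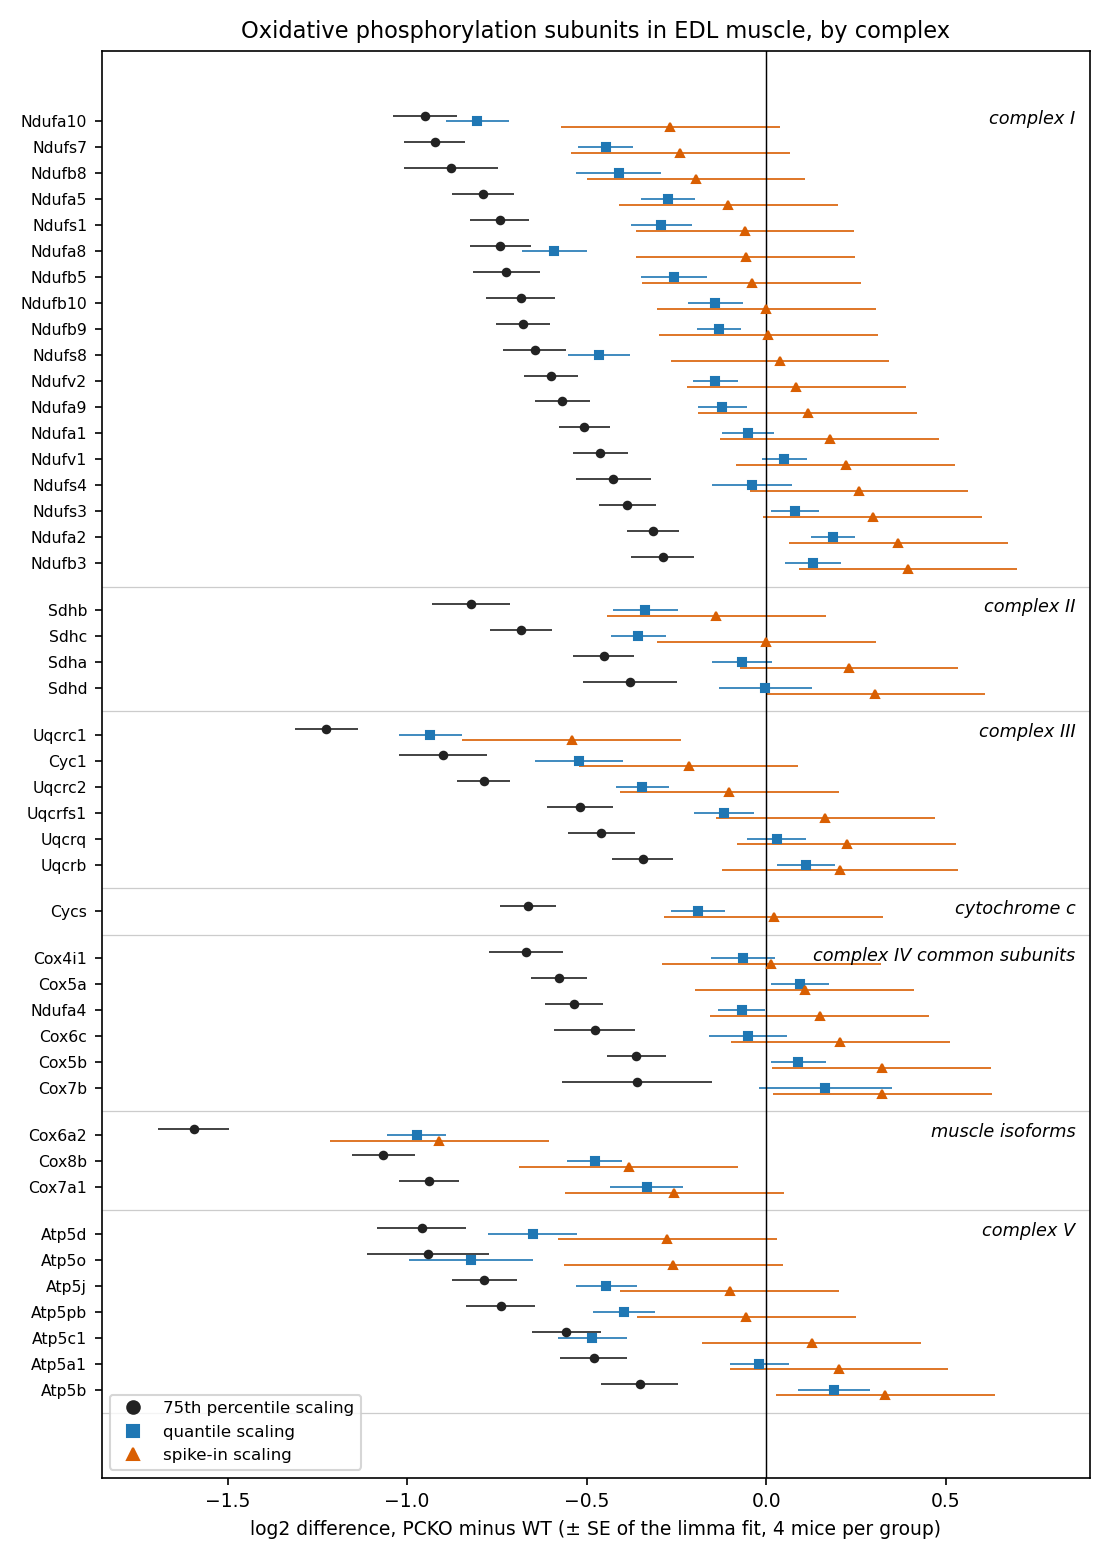
Log2 difference between PCKO and WT EDL muscle (x axis, points, bars showing its limma standard error, 4 mice per group except 3 WT values for Uqcrb) for each of the 45 subunit genes, grouped by complex. Black circles (75th percentile scaling) all lie left of 0, blue squares (quantile scaling) lie nearer to 0, and orange triangles (spike-in scaling) scatter around 0 with wider bars, with Cox6a2 farthest left under each scaling.

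The probes of the subunit genes were bright, and genes with bright probes were more often lower in PCKO muscle than dimmer ones. Among the 441 genes with a mean level of 7 or more, 62.8% were called lower and the median difference was -0.39. The 30 subunit genes in that range had a median of -0.59, and 29 of them were called lower. Between 5 and 7, 42.4% of 1331 genes were lower with a median of -0.11, and the 10 subunit genes there were all lower with a median of -0.71. Between 3 and 5, 29.5% of 2590 genes were lower with a median of 0.12, and the 5 subunit genes there were all lower with a median of -0.74. None of the 45 had a level below 3.

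How far the subunit genes differed depended on the scaling between arrays. Quantile scaling, which gives all arrays 1 distribution of signals, left 22 genes lower, 1 higher (Ndufa2) and 22 not passing, beside 29% of all genes lower and 43.3% higher. Spike-in scaling, which centers each array on 7 of its control RNA probes, left only Cox6a2 lower and none higher in limma, beside 9.45% of all genes lower and 54% higher. At an unadjusted p below 0.05 the counts on that scale were again 1 and 0. There limma gave the 45 genes the same standard error (0.30, or 0.33 for Uqcrb, which lacks 1 WT value). Both counts on that scale therefore rest on the size of the difference, not on the spread of each gene. The median of the 45 was -0.14 by quantile scaling and 0.02 by spike-in scaling, while the median of all genes was 0.15 and 0.74. The 45 therefore sat 0.72 below the median gene by percentile scaling, 0.30 by quantile scaling and 0.72 by spike-in scaling. The first and last values match by construction, because these scalings differ only by 1 shift per array.

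The spike-in scale was the least precise. The 75th percentile of the array lay -2.80 ± 0.33 from the mean of 7 spike-in probes in PCKO muscles and -3.48 ± 0.30 in WT muscles (SD, n = 4 each), a difference of 0.68 log2 units. Every PCKO array lay above every WT array (exact two-sided permutation p = 0.0286, the smallest that 4 against 4 arrays allow), and the difference was 0.54 within slide row 1 and 0.83 within slide row 2. With arrays exchanged only within slide rows, the exact permutation p was 0.0556, the smallest that design allows. The mean spike-in signal itself was 10.56, 10.57, 10.22 and 9.69 in PCKO arrays, against 10.66, 10.47, 10.44 and 10.23 in WT arrays, so PCKO replicate 4 stood below the rest. Subunit differences on this scale shared 1 standard error of 0.30 (0.33 for Uqcrb), pooled over genes. For the median-ranked gene, Cycs, the 95% interval of the spike-in difference was -0.58 to 0.62, which spans 0 and reaches nearly as low as the percentile value. The pooling treats genes as independent, but genes of 1 array share its spike-in offset. The spike-in intervals here and below are therefore likely too narrow. Leaving out any 1 mouse left Cox6a2 as the only subunit gene called on this scale, while the median of the 45 moved between -0.13 and 0.16, the lowest without PCKO replicate 4.

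**Figure D2:**
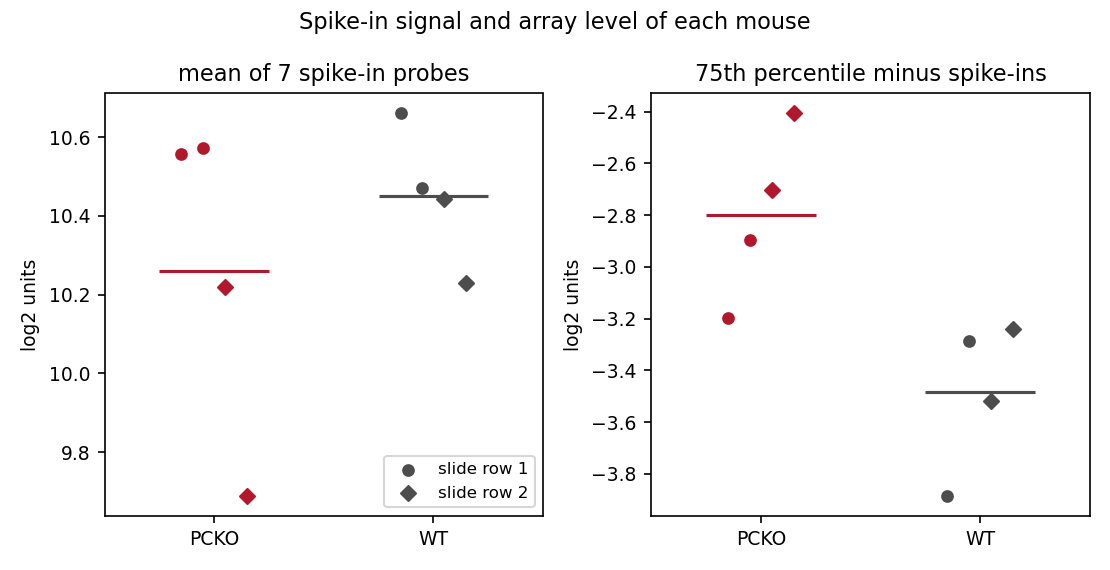
Mean log2 signal of 7 spike-in probes (left) and the 75th percentile of each array minus that mean (right), 1 point per mouse, with circles for slide row 1, diamonds for slide row 2 and lines at group means. On the right the 4 PCKO arrays, from -3.20 to -2.40, all lie above the 4 WT arrays, from -3.89 to -3.24.

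Averaged over genes, the level of each complex separated the groups with percentile scaling. Over all 45 genes, relative to the WT mean, the 4 PCKO muscles stood at -0.62, -0.76, -0.67 and -0.61, against 0.09, 0.04, -0.04 and -0.09 in the 4 WT muscles. Quantile scaling kept the groups apart, at -0.23, -0.27, -0.28 and -0.17 in PCKO muscles against 0.05, 0.05, -0.03 and -0.07 in WT muscles. Spike-in scaling did not, at -0.34, -0.18, 0.11 and 0.47 in PCKO muscles against -0.31, 0.23, -0.08 and 0.15 in WT muscles. The PCKO muscles lay close together on the first scale and far apart on the last.

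**Figure D3:**
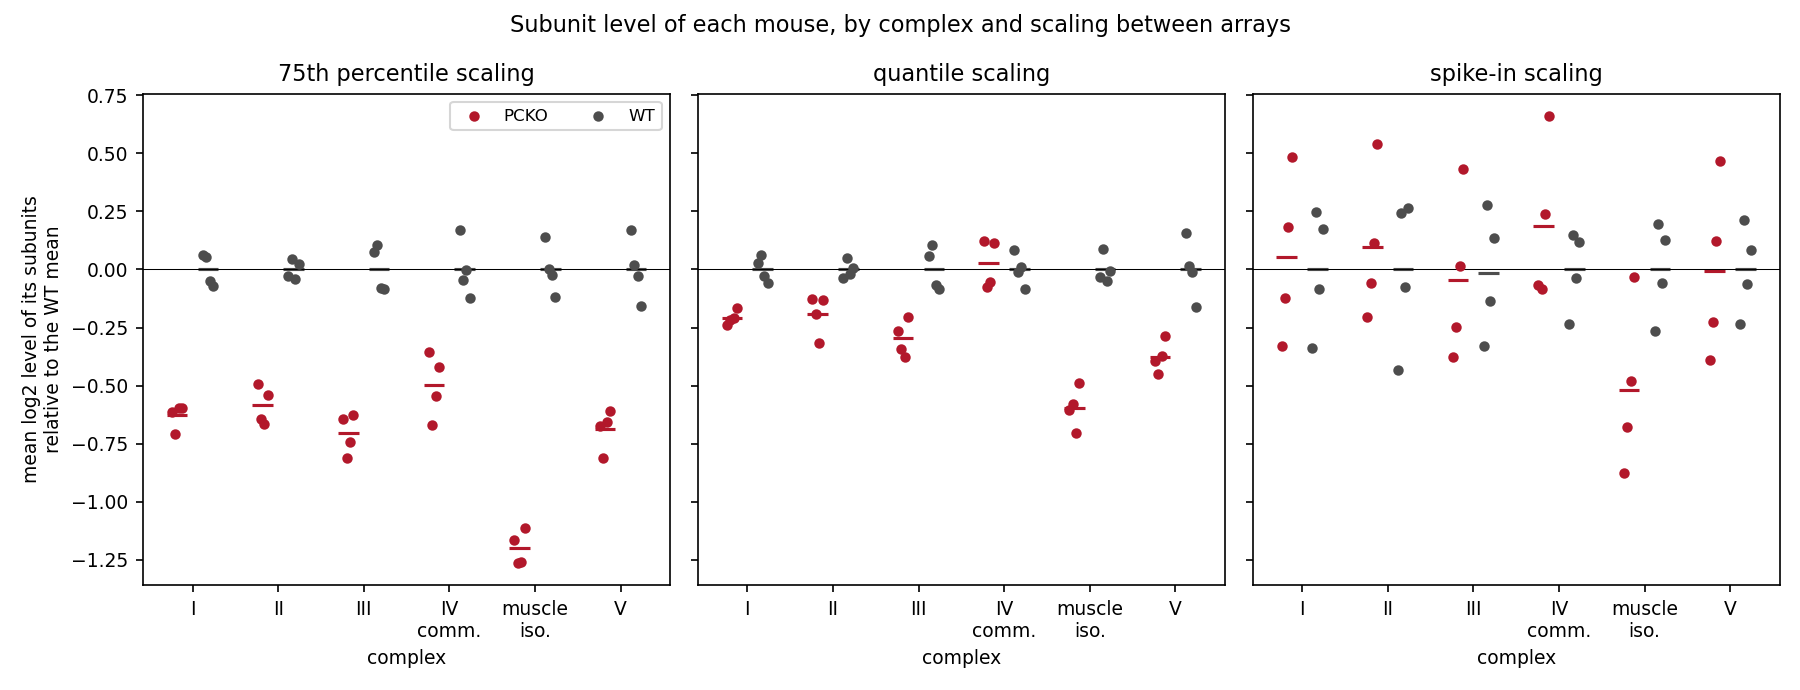
Mean log2 level of the subunit genes of each complex relative to the WT mean (y axis), 1 point per mouse, PCKO in red and WT in gray, lines at group means, for 3 scalings. PCKO and WT points do not overlap for any complex by percentile scaling, overlap for the common subunits of complex IV by quantile scaling, and overlap for every complex by spike-in scaling.

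Complex I, NADH dehydrogenase, takes electrons from NADH through a matrix arm of flavin and iron-sulfur subunits and pumps protons through a membrane arm. All 18 of its genes were lower with percentile scaling, with a median of -0.66 and a range from -0.95 to -0.29. The matrix arm subunit Ndufs7, which carries the last iron-sulfur cluster before ubiquinone, stood at 7.59, 7.49, 7.64 and 7.66 in PCKO muscles, against 8.60, 8.65, 8.38 and 8.45 in WT muscles. The groups did not overlap, and the difference was -0.92 ± 0.09 (SE, limma, adjusted p = 1.9e-05), or 1.90-fold lower. Its partner iron-sulfur subunit Ndufs8 differed by -0.65 ± 0.09.

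Ndufa10, an accessory subunit of the membrane arm, had the largest difference of complex I. It stood at 4.14, 4.10, 4.18 and 4.09 in PCKO muscles, against 5.13, 5.25, 5.04 and 4.89 in WT muscles, without overlap. Its difference of -0.95 ± 0.09 was 1.93-fold (limma, adjusted p = 2.1e-05), and quantile scaling still gave -0.81. The NADH-binding module gave smaller differences, with -0.46 ± 0.08 for the flavoprotein Ndufv1, -0.60 ± 0.07 for its partner Ndufv2 and -0.74 ± 0.08 for the largest iron-sulfur subunit, Ndufs1. Of the other matrix arm subunits, the core protein Ndufs3 differed by -0.39, and the accessory proteins Ndufs4, Ndufa9, Ndufa5 and Ndufa2 differed by -0.43, -0.57, -0.79 and -0.32.

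Membrane arm accessory subunits covered nearly the whole range of the complex. Ndufb8 differed by -0.88 ± 0.13, Ndufb5 by -0.72, Ndufb10 and Ndufb9 by -0.68 each, and Ndufa8 and Ndufa1 by -0.74 and -0.51. Ndufb3 had the smallest difference, with 7.01, 6.76, 6.83 and 6.95 in PCKO muscles, against 7.20, 7.25, 7.02 and 7.23 in WT muscles. The highest PCKO value lay only 0.0083 below the lowest WT value, and the difference of -0.29 ± 0.09 passed (limma, adjusted p = 0.016). By quantile scaling 8 complex I genes remained lower, and Ndufa2 was higher (0.19, limma, adjusted p = 0.022). By spike-in scaling none of the 18 passed, and Ndufa10 differed by -0.27 with a 95% interval from -0.86 to 0.33.

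Complex II, succinate dehydrogenase, also belongs to the citric acid cycle and is encoded by nuclear genes alone. All 4 of its genes were lower, with a median of -0.57. Sdhb, the iron-sulfur subunit, stood at 7.92, 7.68, 7.78 and 7.76 in PCKO muscles, against 8.78, 8.49, 8.76 and 8.40 in WT muscles. The groups did not overlap and the difference was -0.82 ± 0.11 (limma, adjusted p = 0.00017), while a dimmer probe of the same gene gave -1.50. The flavoprotein Sdha differed by -0.45 ± 0.09 and the membrane anchor Sdhc by -0.68 ± 0.09.

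The other anchor, Sdhd, was the weakest call of the 44. It stood at 6.56, 6.38, 6.33 and 6.63 in PCKO muscles, against 6.77, 7.19, 6.62 and 6.84 in WT muscles. PCKO replicate 4 reached just past WT replicate 3, and the difference was -0.38 ± 0.13 (limma, adjusted p = 0.028). Leaving out PCKO replicate 2, PCKO replicate 3 or WT replicate 2 ended the call, with an adjusted p of up to 0.074. By quantile scaling Sdhb and Sdhc remained lower (median of the 4, -0.20), and by spike-in scaling none passed (median 0.11).

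Complex III, the cytochrome bc1 complex, passes electrons from ubiquinol to cytochrome c. All 6 of its genes were lower, with a median of -0.65. Uqcrc1, a core protein facing the matrix, stood at 5.35, 5.26, 5.26 and 5.25 in PCKO muscles, against 6.69, 6.53, 6.44 and 6.34 in WT muscles. The lowest WT value lay 0.99 log2 units above the highest PCKO value, and the difference of -1.23 ± 0.09 was 2.34-fold (limma, adjusted p = 4.2e-06). Quantile scaling gave -0.94, and spike-in scaling gave -0.54 with a 95% interval from -1.14 to 0.05. The other core protein, Uqcrc2, differed by -0.79 ± 0.07.

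Cyc1, the cytochrome c1 heme protein that hands electrons to cytochrome c, stood at 6.45, 6.16, 6.24 and 6.50 in PCKO muscles, against 7.29, 7.50, 7.07 and 7.09 in WT muscles. The values did not overlap and differed by -0.90 ± 0.12 (limma, adjusted p = 0.00019). The Rieske iron-sulfur protein Uqcrfs1 differed by -0.52 ± 0.09. The small subunits Uqcrq and Uqcrb differed by -0.46 ± 0.09 and -0.34 ± 0.09, the second over 3 WT arrays because its spot on WT replicate 1 was flagged as an outlier. By quantile scaling Uqcrc1, Uqcrc2 and Cyc1 remained lower, and by spike-in scaling none of the 6 passed.

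Cycs encodes somatic cytochrome c. It stood at 7.82, 7.76, 7.89 and 8.01 in PCKO muscles, against 8.53, 8.60, 8.55 and 8.46 in WT muscles. All 4 PCKO values lay below the WT values, with a difference of -0.66 ± 0.08 (limma, adjusted p = 8.3e-05), and its 2 further probes gave -0.74 and -0.76. Quantile scaling gave -0.19, with PCKO and WT values that overlapped, and spike-in scaling 0.02, the second not passing.

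Complex IV, cytochrome c oxidase, reduces oxygen to water. Of its 6 common subunits, 5 were lower, and their median of -0.51 was the smallest in size among the complexes. Cox4i1, the regulatory subunit that is the main form outside the lung, stood at 8.76, 8.42, 8.51 and 8.67 in PCKO muscles, against 9.43, 9.28, 9.22 and 9.12 in WT muscles. Its groups did not overlap and differed by -0.67 ± 0.10 (limma, adjusted p = 0.00043). The matrix-facing subunits Cox5a and Cox5b differed by -0.58 ± 0.08 and -0.36 ± 0.08, and the transmembrane subunit Cox6c by -0.48 ± 0.11. Ndufa4, first described as a complex I protein and now counted in complex IV, differed by -0.54 ± 0.08.

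Cox7b, a small transmembrane subunit, was the single subunit gene that did not pass. It stood at 8.55, 7.87, 8.03 and 8.41 in PCKO muscles, against 9.01, 8.33, 8.72 and 8.25 in WT muscles. The groups overlapped, with an SD of 0.32 in PCKO muscles and 0.35 in WT muscles, and a difference of -0.36 ± 0.21 (limma, adjusted p = 0.15). By quantile and by spike-in scaling none of the 6 common subunits passed, with medians of 0.02 and 0.18.

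The 3 muscle isoforms of complex IV had the lowest median of the groups, -1.07, and all 3 were lower by both percentile and quantile scaling. Cox6a2, the muscle form of the dimer-contact subunit, had the largest difference of the 45 genes. It stood at 8.79, 8.51, 8.53 and 8.62 in PCKO muscles, against 10.42, 10.10, 10.17 and 10.14 in WT muscles. The lowest WT value lay 1.31 log2 units above the highest PCKO value, and the difference of -1.59 ± 0.10 was 3.02-fold (limma, adjusted p = 1.8e-06). Quantile scaling gave -0.97 and spike-in scaling -0.91 ± 0.30 (limma, adjusted p = 0.0057).

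Cox8b, the muscle form of the smallest transmembrane subunit in rodents, stood at 8.19, 8.23, 8.25 and 8.34 in PCKO muscles, against 9.48, 9.36, 9.30 and 9.14 in WT muscles. Cox7a1, the muscle form of a subunit at the dimer surface, stood at 8.59, 8.51, 8.48 and 8.75 in PCKO muscles, against 9.56, 9.60, 9.51 and 9.42 in WT muscles. Neither gene's groups overlapped, and they differed by -1.07 ± 0.09 and -0.94 ± 0.08 (limma, adjusted p = 9e-06 and 1.6e-05). By spike-in scaling neither passed, with 95% intervals from -0.98 to 0.21 for Cox8b and from -0.85 to 0.34 for Cox7a1.

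The promoter windows of both muscle isoforms for which RefSeq gives one, their ubiquitous partners and Cycs are shown because the partners moved differently and Cycs sits at the median of the 45. Each window runs from 250 bases before to 50 bases after the RefSeq transcription start on GRCm38.p6, 5′ to 3′ on the gene's strand. They are chr7:30183921-30184220 (plus strand) for Cox7a1, chr9:79759804-79760103 (minus) for Cox7a2, chr7:140900397-140900696 (minus) for Cox8b, chr19:7217567-7217866 (minus) for Cox8a and chr6:50566520-50566819 (minus) for Cycs. Capitals mark exact matches, on either strand, to the ETS motif CCGGAAG, the estrogen-related receptor half-site AAGGTCA, the cyclic AMP response half-site TGACG, the Sp motif GGGCGG, the TATA motif TATAAA, and the NRF1 and MEF2 motifs.
Cox7a1: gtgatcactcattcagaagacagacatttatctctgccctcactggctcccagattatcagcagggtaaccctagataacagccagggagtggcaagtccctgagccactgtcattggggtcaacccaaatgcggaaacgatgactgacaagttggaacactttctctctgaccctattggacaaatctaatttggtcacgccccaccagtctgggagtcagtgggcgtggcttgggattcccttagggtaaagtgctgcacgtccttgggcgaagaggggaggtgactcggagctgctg
Cox7a2: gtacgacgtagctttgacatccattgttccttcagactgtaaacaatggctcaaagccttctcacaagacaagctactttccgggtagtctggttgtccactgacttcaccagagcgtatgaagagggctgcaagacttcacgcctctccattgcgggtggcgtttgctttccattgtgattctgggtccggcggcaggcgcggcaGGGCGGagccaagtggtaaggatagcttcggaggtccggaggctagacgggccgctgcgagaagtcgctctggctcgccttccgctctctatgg
Cox8b: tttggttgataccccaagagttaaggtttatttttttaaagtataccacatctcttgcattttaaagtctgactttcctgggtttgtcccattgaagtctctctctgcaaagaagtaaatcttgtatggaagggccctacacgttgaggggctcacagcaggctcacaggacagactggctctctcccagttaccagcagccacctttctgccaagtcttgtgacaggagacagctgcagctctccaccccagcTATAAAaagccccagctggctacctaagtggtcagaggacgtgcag
Cox8a: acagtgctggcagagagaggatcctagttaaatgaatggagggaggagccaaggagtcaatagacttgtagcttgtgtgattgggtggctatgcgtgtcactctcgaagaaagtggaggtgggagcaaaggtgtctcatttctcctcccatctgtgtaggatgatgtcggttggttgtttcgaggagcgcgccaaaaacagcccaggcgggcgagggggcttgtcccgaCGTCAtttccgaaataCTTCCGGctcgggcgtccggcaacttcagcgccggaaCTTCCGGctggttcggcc
Cycs: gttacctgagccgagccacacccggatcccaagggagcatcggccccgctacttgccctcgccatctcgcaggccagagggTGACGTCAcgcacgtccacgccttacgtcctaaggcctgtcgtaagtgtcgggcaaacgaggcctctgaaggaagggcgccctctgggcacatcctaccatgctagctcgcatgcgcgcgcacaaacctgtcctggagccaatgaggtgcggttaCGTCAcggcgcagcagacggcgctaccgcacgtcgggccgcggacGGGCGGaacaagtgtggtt

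The Cox7a1 window held no capitalized motif, and the Cox7a2 window held 1 Sp match. The Cox8b window held 1 TATA match, 4 to 9 bases after the annotated start, and the Cox8a window held 2 ETS matches and 1 cyclic AMP response half-site. The Cycs window held 3 such half-sites, of which 2 overlap as a palindrome 169 to 162 bases before the start, and 1 Sp match. Any windows of subunit genes on chromosome 18 were left out of the shares. Over the 37 windows left, from 33 subunit genes, TGACG was present in 35.1%, against 20.8% of 32851 windows of all genes. The shares were 13.5% against 8.86% for CCGGAAG, 40.5% against 35.7% for GGGCGG, 2.7% against 4.72% for AAGGTCA, 5.41% against 13.6% for TATAAA and 64.9% against 72.3% for the E-box CANNTG, which was searched but not capitalized. NRF1 matches stood in 3 of the 37 windows (8.11%, against 1.27%) and MEF2 matches in none (against 3.19%). The subunit windows were richer in G and C, with a median of 58.3% against 52.7%, and the shares were not adjusted for that. Only exact matches to 1 fixed pattern per motif were counted, so a window without a match can still hold a related site. Matches are letters in these windows, not measured binding.

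Each muscle isoform was then set against its ubiquitous partner on the same array, a difference that no shift of a whole array can change. Cox6a1 stood at 7.13, 7.11, 7.21 and 7.33 in PCKO muscles, against 7.13, 7.48, 7.20 and 7.27 in WT muscles, with overlap and a difference of -0.08 ± 0.10 (limma, adjusted p = 0.50). Cox7a2 stood at 6.89, 6.70, 6.86 and 6.87 in PCKO muscles, against 7.32, 7.41, 7.16 and 7.17 in WT muscles, without overlap. Cox8a stood at 6.79, 6.71, 6.79 and 6.84 in PCKO muscles, against 6.49, 6.67, 6.54 and 6.56 in WT muscles, also without overlap. Cox7a2 was thus lower (-0.43 ± 0.09, limma, adjusted p = 0.0017) and Cox8a higher (0.22 ± 0.07, limma, adjusted p = 0.021). By quantile scaling Cox7a2 no longer passed (-0.01), and by spike-in scaling its sign turned (0.25, not passing), while Cox8a stayed higher under both (0.58 and 0.90). Cox6a1 was higher by quantile scaling (0.36, limma, adjusted p = 0.0094) and did not pass by spike-in scaling (0.61).

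The muscle isoform fell relative to its partner in all 3 pairs. Relative to the WT mean of the pair, Cox6a2 minus Cox6a1 was -1.28, -1.53, -1.62 and -1.64 in PCKO muscles, against 0.35, -0.33, 0.03 and -0.06 in WT muscles, a 2.86-fold difference. Cox8b minus Cox8a was -1.36, -1.23, -1.29 and -1.25 in PCKO muscles, against 0.23, -0.07, 0.01 and -0.18 in WT muscles, a 2.43-fold difference. Cox7a1 minus Cox7a2 was -0.57, -0.45, -0.63 and -0.38 in PCKO muscles, against -0.01, -0.06, 0.09 and -0.01 in WT muscles, a 1.42-fold difference. The groups did not overlap in any pair, so each exact two-sided permutation test gave p = 0.0286, the smallest that 4 against 4 mice allow, and 0.0286 after Benjamini-Hochberg adjustment over the 3 pairs. The mean differences were -1.52, -1.28 and -0.51, lower in 4 of 4 PCKO muscles each time. Quantile scaling, which can change a difference within an array, gave -1.33, -1.06 and -0.32 in the same order, again without overlap. With mice exchanged only within slide rows, each exact permutation p was 0.0556, the smallest that design allows, so the tests cannot reach 0.05 there. Cox4i2, the alternative form of Cox4i1, differed by -0.57 ± 0.10, beside -0.67 for Cox4i1, and turned above 0 by spike-in scaling without passing (0.12).

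**Figure D4:**
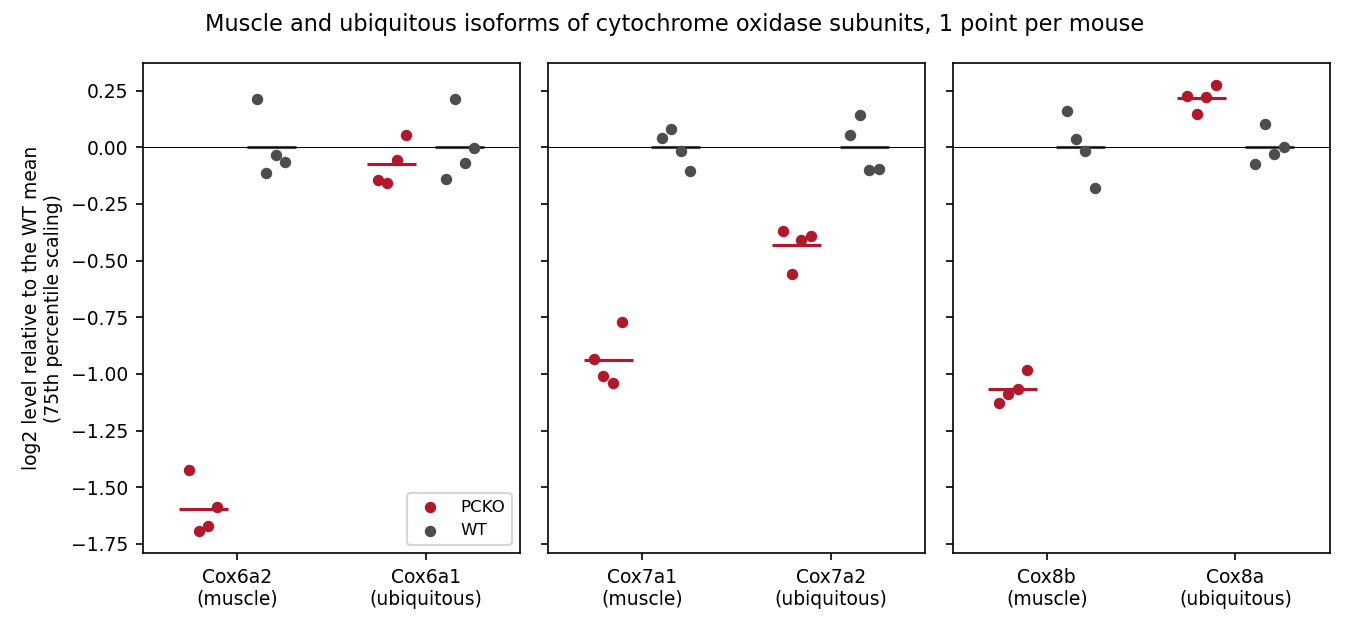
Log2 level relative to the WT mean (y axis, percentile scaling) of the muscle isoforms Cox6a2, Cox7a1 and Cox8b and of their ubiquitous partners, 1 point per mouse, PCKO in red and WT in gray, lines at group means. The PCKO points of Cox6a2 average 1.59 below WT, those of Cox6a1 overlap WT, and those of Cox8a lie above WT.

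Complex V, ATP synthase, has a catalytic head, a rotating central stalk and a stationary peripheral stalk. All 7 of its genes were lower, with a median of -0.74. Atp5d, the delta subunit of the central stalk, stood at 5.58, 5.47, 5.64 and 5.62 in PCKO muscles, against 6.73, 6.73, 6.49 and 6.21 in WT muscles. Atp5o, the peripheral stalk protein that holds the head in place, stood at 4.11, 3.47, 3.92 and 4.01 in PCKO muscles, against 5.19, 4.80, 4.68 and 4.61 in WT muscles. Both were without overlap and were 1.94-fold and 1.92-fold lower (-0.96 ± 0.12 and -0.94 ± 0.17, limma, adjusted p = 0.00015 and 0.0011).

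The peripheral stalk proteins Atp5pb, listed as Atp5f1 in older annotation, and Atp5j differed by -0.74 ± 0.10 and -0.79 ± 0.09. The catalytic head had smaller differences. Atp5b, the beta subunit that forms the catalytic sites, stood at 8.29, 8.49, 8.42 and 8.46 in PCKO muscles, against 8.997, 8.63, 8.86 and 8.58 in WT muscles. The gap between the groups was 0.09 log2 units, and the difference of -0.35 ± 0.11 passed (limma, adjusted p = 0.016). The alpha subunit Atp5a1 differed by -0.48 ± 0.09 and the rotating gamma subunit Atp5c1 by -0.56 ± 0.10. By quantile scaling 5 of the 7 remained lower, all but Atp5a1 and Atp5b, and by spike-in scaling none passed (median -0.06).

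The other nuclear-encoded subunits, which are not among the 45, were mostly lower too. Of 38 tested, 33 were lower, 2 were higher and 3 did not pass by percentile scaling, with a median of -0.48. By quantile scaling 9 were lower and 6 higher, and by spike-in scaling none was lower and 2 were higher. Over all genes, 32.7% were lower by percentile, 29% by quantile and 9.45% by spike-in scaling, and 38.3%, 43.3% and 54% were higher. Atpif1, the inhibitor that stops ATP synthase from running backward, went the other way. It stood at 7.45, 7.40, 7.43 and 7.40 in PCKO muscles, against 5.40, 5.64, 5.39 and 5.46 in WT muscles, a difference of 1.95 ± 0.08 (limma, adjusted p = 1.5e-07). It was higher by quantile and by spike-in scaling as well (2.31 and 2.63). Changes in these lists included Ndufab1 (-0.89), Uqcr11 (-0.65), Uqcrh (-0.51), Cox7c (-0.58) and Atp5l (-0.92). By spike-in scaling Ndufab1 and Atp5l kept their sign without passing (-0.20 and -0.24), and Uqcr11, Uqcrh and Cox7c turned above 0 without passing. The 13 mitochondrially encoded subunits were not analysed here.

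Assembly factors, which help to build the complexes, were split. Of 45 tested, 15 were lower and 16 higher by percentile scaling, beside 32.7% and 38.3% of all genes. The median was -0.06, near that of all genes (0.06). Spike-in scaling called none lower and 22 higher (median 0.62), beside 9.45% and 54% of all genes (median 0.74). Of the 19 for complex IV, 10 were higher and 4 lower (median 0.26), and by spike-in scaling 11 were higher and none lower. Ndufaf2, a late assembly factor of complex I, differed by 1.26 ± 0.07, while Ndufaf6, which acts early, differed by -1.33 ± 0.09. Uqcc1 and Bcs1l, both needed for complex III, differed by -1.11 ± 0.08 and -0.45 ± 0.08, although a second probe of Bcs1l gave -0.05. The copper chaperone Sco2 differed by 0.90 ± 0.13, and its relative Sco1 by 1.07 ± 0.16, a value that a second probe (0.09) did not share. The Sco1 signal was dim, with mean levels of -1.53 in PCKO and -2.60 in WT muscles. With normexp background correction Sco1 differed by 0.14 and did not pass. For complex V, Atpaf1 and Tmem70 differed by -0.52 ± 0.15 and -0.50 ± 0.09. Atpaf2, named after its values were seen, counts among the higher (0.20) by its brighter probe, while its other probe gave -0.51. By spike-in scaling Ndufaf2 and Sco2 stayed higher (1.94 and 1.58), Ndufaf6 and Uqcc1 kept their sign without passing (-0.65 and -0.43), and Bcs1l, Atpaf1 and Tmem70 turned above 0 without passing.

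Coenzyme Q, the electron carrier between complexes I or II and III, is made by the Coq proteins. Of 12 such genes tested, 8 were lower and 1 higher by percentile scaling (median -0.52), against 1 lower and 2 higher by spike-in scaling. Over all genes, 32.7% were lower and 38.3% higher by percentile scaling, against 9.45% lower and 54% higher by spike-in scaling. Coq8a, a kinase-like protein of the synthesis complex, stood at 2.69, 2.73, 2.997 and 2.82 in PCKO muscles, against 5.73, 5.64, 5.21 and 5.67 in WT muscles. Its paralog Coq8b stood at 2.21, 1.96, 1.90 and 2.04 in PCKO muscles, against 0.56, 0.52, 0.45 and 0.50 in WT muscles. The 2 paralogs moved in opposite directions, by -2.75 ± 0.13 and 1.52 ± 0.08 (limma, adjusted p = 3.4e-07 and 8.3e-07), and both kept their direction and their call by quantile and by spike-in scaling (-2.61 and -2.07 for Coq8a, 1.51 and 2.20 for Coq8b). Genes that maintain or express mitochondrial DNA were split, with 4 of 14 lower and 3 higher (median -0.03), against none lower and 7 higher by spike-in scaling. These counts stand beside the same shares of all genes. The mitochondrial DNA packaging factor Tfam (-0.84 ± 0.10) and the helicase Twnk (-0.56 ± 0.12) were the largest changes by percentile scaling, and neither passed by spike-in scaling (-0.16 and 0.12).

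Of 12 transcription regulators known to act on subunit genes, 3 were lower and 2 higher by percentile scaling, and 3 lower and 6 higher by spike-in scaling. The shares over all genes were 32.7% lower and 38.3% higher by percentile scaling, and 9.45% and 54% by spike-in scaling. Perm1, a muscle regulator induced by PGC-1 and estrogen-related receptors, stood at -0.74, -0.24, -0.61 and 0.05 in PCKO muscles, against 5.02, 4.94, 4.56 and 4.60 in WT muscles. Ppargc1a, the coactivator PGC-1alpha, stood at 6.14, 6.37, 6.23 and 6.37 in PCKO muscles, against 3.72, 3.80, 3.52 and 3.42 in WT muscles. They differed by -5.17 ± 0.19 and 2.67 ± 0.11 (limma, adjusted p = 9.8e-08 and 1.4e-07) and kept sign and call by spike-in scaling (-4.48 and 3.35). The receptor Esrrg and the coactivator Ppargc1b were lower (-1.76 ± 0.23 and -1.53 ± 0.45), and the ETS factor subunit Gabpa was higher (0.84 ± 0.08). All 3 kept sign and call by spike-in scaling, where each had the shared standard error of 0.30. For Ppargc1b (-0.85 there) that is less than its own 0.45 by percentile scaling, so its call does not rest on its own spread. Ppargc1b was dim, well above background on 3 of 4 PCKO arrays. Its groups overlapped, with PCKO replicate 4 at -1.63 and WT replicate 1 at -1.71, and normexp background correction gave -0.82. The other 7, Esrra, Esrrb, Nrf1, Gabpb1, Yy1, Creb1 and Sp1, did not pass by percentile scaling, with differences from -0.28 to 0.18. On that scale the probes of Nrf1 disagreed, at 0.16, 0.76 and -0.87, and a second probe of Creb1 gave -0.55 beside -0.23. By spike-in scaling Esrra, Nrf1, Gabpb1 and Yy1 passed as higher (0.83, 0.85, 0.86 and 0.69, limma, adjusted p = 0.012, 0.010, 0.0092 and 0.039). Esrra was also higher by quantile scaling (0.44, limma, adjusted p = 0.021).

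**Figure D5:**
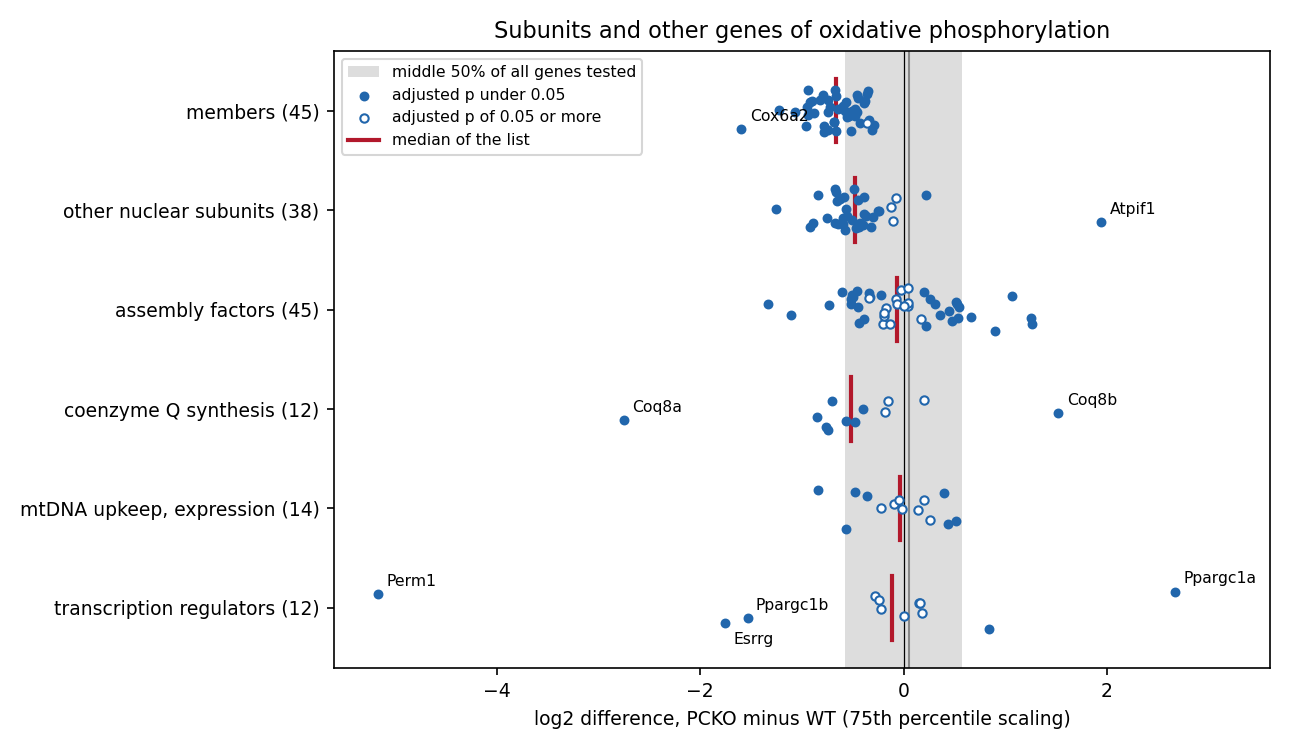
Log2 difference, PCKO minus WT, with percentile scaling (x axis) for the 45 subunit genes and 5 lists of related genes (rows). Each point is 1 gene, filled where the adjusted p was under 0.05, with red bars at list medians and gray shading over the middle 50% of all genes tested. Subunit genes cluster left of 0, assembly factors lie on both sides, and Perm1, Coq8a, Ppargc1a and Atpif1 lie farthest out.

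Markers of other cell types of muscle moved with the same comparison. By percentile scaling 5 of 5 endothelial, 4 of 4 macrophage, 5 of 5 fibroblast and 5 of 5 smooth muscle and pericyte markers tested were lower in PCKO muscle, and none was higher. By spike-in scaling the counts lower were 0, 1, 3 and 0. Over all genes, 32.7% were lower by percentile scaling and 9.45% by spike-in scaling. Their mean levels ranged over 0.06 to 0.42 in PCKO muscles and 0.86 to 1.12 in WT muscles for endothelial markers, and over -0.28 to 0.70 in PCKO muscles and 1.04 to 1.38 in WT muscles for macrophage markers. For fibroblast markers the ranges were 2.01 to 3.11 in PCKO muscles and 3.78 to 4.70 in WT muscles, and for smooth muscle and pericyte markers 2.75 to 3.16 in PCKO muscles and 3.61 to 3.92 in WT muscles. By percentile scaling satellite cell markers were lower in 2 of 4, with differences from -1.45 to 0.82. No adipocyte or red blood cell marker passed on that scale (0 of 3 each). By spike-in scaling 1 satellite cell marker was lower and 1 higher, 2 of 3 red blood cell markers were higher, and no adipocyte marker passed. No marker tested was below background on every PCKO array. The part of these cells in the subunit differences was not tested, and in whole muscle, fewer cells of a type and less RNA per cell cannot be told apart.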

How the data were processed

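Per the file headers, the authors deposited Agilent Feature Extraction 10.7.3.1 output of 8 one-color arrays, holding spot intensity in linear units (the processed signal, background-subtracted by that program). The authors also deposited a log2 table of processed values, with no normalization stated. From the intensities, flagged non-uniform or outlier spots (1507) were left out, log2 processed signals were set relative to the 75th percentile of 55681 non-control probes of that array, and spots of a probe were averaged. Accessions matched 1 symbol for 26582 probes (RefSeq names, GRCm38.p6) and 29099 stayed unnamed. A probe was tested if well above background on at least 4 of 8 arrays, and the tested probe with the highest mean over the 8 arrays stood for its gene. PCKO and WT were compared by lmFit and eBayes, two-sided, of limma 3.58.1 (R 4.3.3), with Benjamini-Hochberg adjustment over 12739 genes and a threshold of 0.05. The procedure was tested on simulated data.

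Isoform pairs and the array level were tested by exact permutation over mice. Alternatives were quantile and spike-in scaling (7 of 10 spike-in probes), median centering, normexp (offset 50), other filters, probe rules and variance models, the deposited table, the replicate number or slide row as a block, each slide row alone, and leaving out each mouse. The 45 genes, the lists and the tests were chosen with earlier results of these data known. Named genes are all 45, the targeted genes, the isoform partners, all regulators, and the 2 largest called changes of each other list. One gene that this rule names is not reported here. The labels do not say whether mice shared a litter, so p-values measure the spread between these 8 mice, whose number limits the precision.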

Additional observations from a re-analysis of the deposited data

Results flagged for a closer look

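Among 109 groups of 4 values checked for a single outlying mouse, 3 stood out, where chance alone flags about 1 in 20 groups. For Uqcrc1, PCKO replicate 1 stood at 5.35, with the other PCKO muscles at 5.25 to 5.26, and its gap took 0.885 of the group's range. For Cox5b, WT replicate 3 stood at 7.58, with the other WT muscles at 7.45 to 7.47 (0.857 of the range). For Atp5a1, WT replicate 1 stood at 7.92, with the other WT muscles at 7.67 to 7.69 (0.926 of the range). All 3 genes stayed lower in PCKO muscle whichever mouse was left out, with an adjusted p of at most 0.013 (limma).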

How the results depend on the processing

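Scaling and source of values decided how many subunit genes were called. Of the 45, 22 were lower and 1 higher by quantile scaling, 1 lower by spike-in scaling, 26 lower by normexp background correction, and 13 lower and 1 higher in the deposited values, which hold 30 of them. Over all genes, 1204 were lower by spike-in scaling and 2388 in the deposited values, against 4171. Normexp called 28.5% of all genes lower and 37% higher, and the deposited values called 28.7% of 8312 genes lower and 41.3% higher. Quantile scaling moved the median gene by 0.10, spike-in scaling by 0.68, normexp by 0.02 and the deposited values by 0.04.

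Medians for complexes I, II, III, common IV, V and the muscle isoforms were, in that order, -0.14, -0.20, -0.23, 0.018, -0.45 and -0.48 by quantile scaling, and 0.022, 0.11, 0.030, 0.18, -0.057 and -0.38 by spike-in scaling. They were -0.41, -0.30, -0.34, -0.24, -0.45 and -0.80 by normexp, and -0.22, -0.033, -0.29, 0.012, -0.36 and -0.79 in the deposited values. Slide row 2 alone gave -0.55 for complex I, -0.65 for II, -0.59 for V and -0.93 for the muscle isoforms, and slide row 1 alone gave -0.89 for V and -1.21 for the muscle isoforms. Each row alone called 35 of the 45 lower, beside 24.4% of all genes lower in either row, and 28.1% higher in row 1 and 27.2% higher in row 2.

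Single genes turned positive under 3 alternatives. By spike-in scaling these were Atp5a1 0.20, Atp5b 0.33, Atp5c1 0.13, Cox4i1 0.014, Cox5a 0.11, Cox5b 0.32, Cox6c 0.21, Cox7b 0.32, Cycs 0.020, Ndufa1 0.18, Ndufa2 0.37, Ndufa4 0.15, Ndufa9 0.12, Ndufb3 0.39, Ndufb9 0.0053, Ndufs3 0.30, Ndufs4 0.26, Ndufs8 0.038, Ndufv1 0.22, Ndufv2 0.084, Sdha 0.23, Sdhd 0.30, Uqcrb 0.20, Uqcrfs1 0.16 and Uqcrq 0.22. By quantile scaling they were Atp5b 0.19, Cox5a 0.093, Cox5b 0.088, Cox7b 0.16, Ndufa2 0.19, Ndufb3 0.13, Ndufs3 0.080, Ndufv1 0.049, Uqcrb 0.11 and Uqcrq 0.029. In the deposited values they were Atp5b 0.20, Cox5a 0.14, Ndufa4 0.030, Ndufb3 0.20, Ndufs3 0.20, Sdhd 0.036, Uqcrb 0.11 and Uqcrq 0.15. Spike-in scaling differs from percentile scaling only by 1 shift per array, and the cause of the other changes was not tested.

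Leaving out 1 mouse at a time, 43 to 44 subunit genes were lower and 0 higher, Sdhd being the one lost, and 3936 to 4058 of all genes were lower and 4589 to 4865 higher. Medians ranged over -0.69 to -0.63 (I), -0.60 to -0.52 (II), -0.69 to -0.61 (III), -0.56 to -0.45 (common IV), -0.78 to -0.67 (V) and -1.13 to -1.01 (muscle isoforms). Differences within pairs ranged over -1.63 to -1.40 (Cox6a2 minus Cox6a1), -0.55 to -0.46 (Cox7a1 minus Cox7a2) and -1.34 to -1.21 (Cox8b minus Cox8a), and the array level over 0.55 to 0.82. With 7 mice the exact two-sided p of each pair was 0.0286, the smallest possible. For the array level it was 0.0286 without PCKO replicate 1, 2 or 3, and 0.0571 without PCKO replicate 4 or any 1 WT mouse. No deposited value was used for Cox7a1 or Cox7a2, so that pair was not tested there and the deposited muscle isoform median rests on Cox6a2 and Cox8b.

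Same-numbered mice correlated by 0.0534 to 0.124 in their deviations from group means, not all above 0.1, so the numbers were not taken to pair the mice, although each mouse correlated best with its own number. With the replicate number as a block, 44 subunit genes stayed lower and 0 were higher, 4169 of all genes were lower and 4791 higher, and the medians did not move. With this block the pairs and the array level, at -1.52, -0.51, -1.28 and 0.68, gave an exact p of 0.125, the smallest possible.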
